A study of Hordeum vulgare with 18 samples.

Results

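Small RNAs of barley shoots after 3 h at 35.5 °C were compared with those of shoots kept for the same time at 21 °C. The comparison holds 6 of the 18 libraries of a series on heat exposure for 1, 3 or 6 h. All 3 heat libraries carry the label of high temperature for 3 hours and all 3 control libraries that of control temperature for 3 hours, and the labels call the shoots biological replicates. All plants were 2-week-old seedlings of the spring barley line Rolap, grown in soil and sand at 21 °C by day and 15 °C by night, and the heated and unheated plants shared that genotype and age. The labels do not say how many plants went into a library. The heat libraries of 3 h ran on sequencing lane 1 and the control libraries of 3 h on lane 2, so temperature and lane cannot be told apart within this comparison. At 1 h all libraries ran on lane 1 and at 6 h all on lane 2, and those times are used below as comparisons within a lane.

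MicroRNAs (miRNAs) are short RNAs that are cut out of a hairpin precursor as a duplex of paired strands. The guide strand is loaded into an ARGONAUTE protein and directs the silencing of mRNAs with a matching site, and its partner, the passenger or star strand, is usually degraded. Bases 2 to 8 of a guide, the seed, take part in target recognition, and plant guides pair with their targets along nearly their whole length. Several plant families are known for their responses to nutrients, among them the copper-related families miR397, miR398, miR408 and miR528 and the phosphate-related families miR399 and miR827.

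The sequences that carry the comparison are shown first, as deposited (5′ to 3′, with T for U), with bases 2 to 8 in capitals. The first set holds strands that were lower in heat, each with its partner strand where the table had one. No partner was found for the MIR397a sequence. Partners were sought among all tested sequences of a family, so a pair may come from different hairpins. The labels "5p" and "3p" name the arm of the hairpin, "precursor" is the authors' term for a sequence inside a hairpin but not listed as a mature miRNA, and the species is that of the matched precursor.
miR408 mature 5p (Aegilops tauschii), lower: cAGGGATGgagcagagcaagg
miR408 mature 3p, 20 nt: tGCACTGCctcttccctggc
miR408 mature 3p, 21 nt (Nicotiana tabacum), lower: tGCACTGCctcttccctggct
miR528 mature 3p (Aegilops tauschii), lower: cCTGTGCCtgcctcttccatt
miR528 mature 5p: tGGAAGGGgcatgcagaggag
MIR444c precursor, 21 nt (Oryza sativa), lower: cGGCAAGCtagagacagcaac
miR444 mature 3p, 21 nt: tGTTGTCTcaagcttgctgcc
MIR169c precursor, 21 nt (Brachypodium distachyon), lower: cCTAGTTCtcttcttctggtg
miR169 precursor, its partner (Zea mays): aGAACGGGatgcagccaagga
MIR399a precursor (Brachypodium distachyon), lower: gTGCAGTTctcctctggcatg
miR399 mature 5p, as annotated: tGCCAAAGgagagttgccctg
MIR397a precursor, 22 nt (Hordeum vulgare), lower: aCCGGCGCtgcacgcaatgacg

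The second set holds the sequences that were higher in heat, each followed by its most abundant end variant, which differs from it at the ends alone. MIR156e stands alone because it is itself the most abundant of its end variants.
MIR396a/MIR396b precursor, 19 nt, higher: cAGGCTTTcttgaactgtc
miR396 mature 5p, 21 nt: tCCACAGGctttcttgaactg
MIR319b precursor, 20 nt, higher: cTTGGACTgaagggtgctcc
MIR319b precursor, 21 nt, higher: cTTGGACTgaagggtgctccc
MIR319b precursor, 22 nt: cTTGGACTgaagggtgctccct
MIR160f precursor, 20 nt, higher: cTCCCTGAatgccatccgag
MIR160f precursor, 21 nt: cTCCCTGAatgccatccgaga
MIR166a precursor, 20 nt, higher: gGAATGTTgtctggttcaag
miR166 mature 5p, 21 nt: gGAATGTTgtctggttcaagg
MIR166d precursor, 20 nt, higher: gGAATGTTgtctggctcggg
miR166 mature 5p, 21 nt: gGAATGTTgtctggctcgggg
MIR156e precursor, 20 nt, higher: tGCTGTTGcgtgctcaccct

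The table of 3 h held 4671 distinct sequences of 18 to 25 nt, from precursors of 174 numbered families and 26 plant species. A library had 1677435 to 2758230 counts in the table, which is 5.19 to 7.86% of all reads of the library as worked out from counts and RPM. Of the sequences, 713 passed the filter on low counts and were tested, with at least 99.7% of the counts of each library. Families named as shoot markers (miR156, miR159, miR166, miR167, miR168 and miR396) held 79.3 to 84.6% of the counts, and the triggers of reproductive phased RNAs, miR2118 and miR2275, had 0 to 2 counts in a library. The libraries are of whole shoots, so fewer cells of a type and less RNA per cell cannot be told apart. Control replicate 1 stood apart: its counts differed from those of the other 2 control libraries by 423 and 407.7 in chi-square over its degrees of freedom, against 29.4 between those 2 and 39.2 to 175 between heat libraries. It held 9327 CPM of miR159, where the other control libraries held 68186 and 63836 CPM. Levels are in CPM, the share of the table's counts scaled with TMM factors, and a difference is the log2 fold change from control to heat ± SE, with n = 3 libraries per group throughout.

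After 3 h, 31 of 713 sequences differed between heat and control (4.35%; edgeR's quasi-likelihood test with Benjamini-Hochberg adjustment, adjusted p under 0.05), 24 lower in heat (3.37%) and 7 higher (0.982%). The 31 sequences came from 13 families, and together they held 0.528 to 2.33% of a library's counts. The lower sequences were led by strands of the miR408, miR528, miR444, miR169, miR397 and miR319 hairpins. The higher ones came from miR396, miR319, miR166, miR160 and miR156 hairpins, and most were end variants of a more abundant sequence. No overlap between the groups was seen in any of the 31, and the same held for 185 of all 713 (25.9%), the 31 included. An unadjusted p under 0.05 was reached by 141 sequences (19.8%). By the authors' annotation 26 of the 31 were precursor sequences, 2 mature 5p and 3 mature 3p, and 3 matched a barley precursor. The tested set held 582 precursor, 71 mature 5p and 60 mature 3p sequences. The shares called were 4.47, 2.82 and 5%, against 4.35% over all tested. The count was 9, 14 and 13 without heat replicate 1, 2 or 3, and 49, 13 and 18 without control replicate 1, 2 or 3, and 30 of the 31 held without control replicate 1. With DESeq2 it was 58 (23 higher, 35 lower), without a filter 55 (18 higher) and 66 when all 18 libraries were fitted (27 higher). Of the 31 calls, 9 held in all 12 alternatives, and these are named where they are described.

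**Figure D1:**
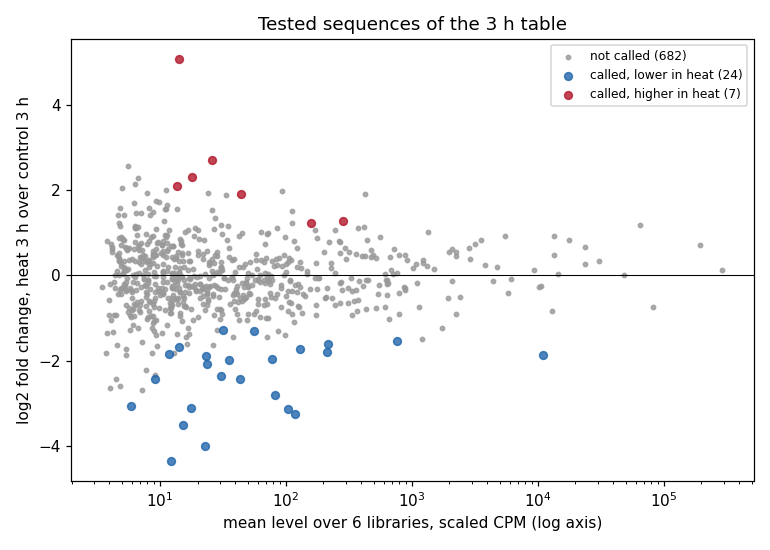
Log2 fold change of heat over control (vertical axis) against the mean level over the 6 libraries of 3 h in scaled CPM (horizontal log axis) for the 713 tested sequences, with the 24 called lower in blue and the 7 called higher in red. The most abundant called sequence, the MIR444c precursor sequence, has a mean of 11001 CPM.

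Of the 2 families whose totals passed, miR444 was the more abundant, a grass family that acts on transcripts of MADS-box regulators. The family total was 40224, 40174 and 37713 CPM in the control libraries and 18148, 17305 and 19785 CPM in the heat libraries, and it fell (log2 fold change -1.10 ± 0.12, adjusted p = 0.00290). Each heat library lay below each control library. The 21-nt MIR444c precursor sequence, which pairs with the mature 3p sequence, stood at 14648, 19584 and 17594 CPM in the control libraries and 4942, 4434 and 4802 CPM in the heat libraries. It fell as well (log2 fold change -1.87 ± 0.22, adjusted p = 0.00256). Forms that start 1, 2 or 3 bases later fell by 1.79 ± 0.27, 1.99 ± 0.33 and 2.43 ± 0.34 on the log2 scale. A form with the same start and 3 bases fewer at the end did not pass (-0.34 ± 0.26, adjusted p = 0.516). Of the counts of the 21-nt form and this shorter form, the 21-nt form held 92.2, 95.4 and 95.6% in control and 85.4, 83.8 and 87.8% in heat, with no overlap.

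The mature 3p sequence of miR444, the strand known to guide silencing of MADS-box mRNAs in rice, was 20322, 15070.2 and 14613 CPM in the control libraries and 8926, 8569 and 10593 CPM in the heat libraries. Its ranges did not overlap either, but it did not pass (log2 fold change -0.83 ± 0.23, adjusted p = 0.0916). An 18-nt form of it that starts 3 bases later fell from a much lower level (-1.29 ± 0.29, adjusted p = 0.0415). Summed over all tested miR444 sequences with a partner, the minor strand, that of the MIR444c sequence, took 42.4, 54.8 and 52.6% in the control libraries and 35.6, 34.6 and 30.99% in the heat libraries of both strands. Every heat library had a smaller share than the control libraries. By annotation, the precursor sequences of miR444 fell as a total (log2 fold change -1.37 ± 0.17, adjusted p = 0.00260), and the mature 3p total stood at -0.80 ± 0.20 (adjusted p = 0.106). The calls of the miR444 total, of its precursor sequences, of the 21-nt MIR444c sequence and of the 18-nt form of that MIR444c strand held in all 12 alternatives. The 18-nt form of the mature 3p strand held in 5, and the MIR444c forms that start 1 and 2 bases later in 11 and 8. Of 40 tested miR444 sequences 5 were lower (12.5%, against 3.37% of all tested) and 0 higher. An unadjusted p under 0.05 was reached by 17 of the 40, and by 19.8% of all tested.

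The copper-related families had 6 of 31 tested sequences lower (19.4%, against 3.37% of all tested) and 0 higher, with a median of -0.77 against -0.08 over all tested sequences. Leaving out 1 library at a time gave 3 to 6 lower. Within a lane the same 31 sequences had a median of 0.10 with 0 lower at 1 h and of 0.05 with 2 lower at 6 h, against -0.01 and 0.05 over the 713. miR408, whose guide is the 3p strand and targets mRNAs of copper proteins such as plantacyanins and laccases, gave 3 of the 6. Its mature 5p sequence was 228, 158 and 259.6 CPM in the control libraries and 19.5, 28.2 and 20.2 CPM in the heat libraries. The highest heat library lay well under the lowest control library, and the sequence fell (log2 fold change -3.25 ± 0.33, adjusted p = 0.00233). The 20-nt form that lacks its first base fell with it (-3.06 ± 0.58). The most abundant mature 3p sequence was 3523, 2559 and 2661 CPM in the control libraries and 1698, 1297 and 1669 CPM in the heat libraries. It too was lower in each heat library, without passing (log2 fold change -0.91 ± 0.25, adjusted p = 0.0931), while the 21-nt form with 1 more base at its end fell (log2 fold change -1.89 ± 0.42, adjusted p = 0.0382). Of these calls that of the 5p sequence held in all 12 alternatives, that of the 20-nt 5p form in 6 of the 11 that tested it and that of the 21-nt 3p form in 7 of 12. The 5p side took 6.24, 6.24 and 8.53% in the control libraries and 1.92, 2.63 and 1.82% in the heat libraries of both strands. Its share in heat lay under that in control in every library.

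The miR408 total was 4800.2, 3459 and 3756 CPM in the control libraries and 2229, 1731 and 2223 CPM in the heat libraries. It did not pass (log2 fold change -0.96 ± 0.21, adjusted p = 0.0882), although no heat library reached a control library, and DESeq2 called it (adjusted p = 0.0272).

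In miR528, a family of monocots whose guide is the 5p strand and targets mRNAs of copper proteins such as ascorbate oxidase, the total was 236, 240.04 and 267 CPM in the control libraries and 84.8, 94.2 and 90.0 CPM in the heat libraries. It fell (log2 fold change -1.46 ± 0.14, adjusted p = 0.00290), and the heat libraries lay close together and far below the control libraries. Most of the difference in CPM was in the 3p sequence, which was 135, 146 and 148 CPM in the control libraries and 13.0, 20.6 and 27.7 CPM in the heat libraries. That sequence fell (log2 fold change -2.81 ± 0.34, adjusted p = 0.00256), in all 12 alternatives. In the fit of all 18 libraries the family total did not pass (-1.44, adjusted p = 0.0551). The 5p guide was 31.2, 27.6 and 29.4 CPM in the control libraries and 23.1, 16.3 and 10.1 CPM in the heat libraries. Its ranges did not overlap, but the difference was smaller and did not pass (log2 fold change -0.82 ± 0.37, adjusted p = 0.260). The 3p strand was the more abundant strand in control and the less abundant strand in heat: the 5p side took 31.2, 30.5 and 33.8% in the control libraries and 82.4, 69.1 and 59.1% in the heat libraries of both strands.

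The remaining copper-related calls were forms of a barley MIR397a precursor, of a family whose guides target laccase mRNAs. The 22-nt form was 28.6, 18.4 and 23.8 CPM in the control libraries and 0.811, 0.478 and 2.13 CPM in the heat libraries, and it fell (log2 fold change -4.35 ± 0.56, adjusted p = 0.00256). Its call held in all 12 alternatives. The form that starts 1 base later fell as well (-3.11 ± 0.72, adjusted p = 0.0424), in 6 of 12 alternatives. Their most abundant end variant, which starts 2 bases before the 22-nt form and ends 3 bases before it, stood at -1.44 ± 0.40 (adjusted p = 0.0975). The miR397 family total stood at -0.25 ± 0.19 (adjusted p = 0.437). miR398, which targets mRNAs of copper/zinc superoxide dismutases, stood at -0.43 ± 0.39 as a total (adjusted p = 0.555) and at -0.41 ± 0.40 in its most abundant sequence (adjusted p = 0.612). No sequence of miR857 was listed in the table of 3 h.

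**Figure D2:**
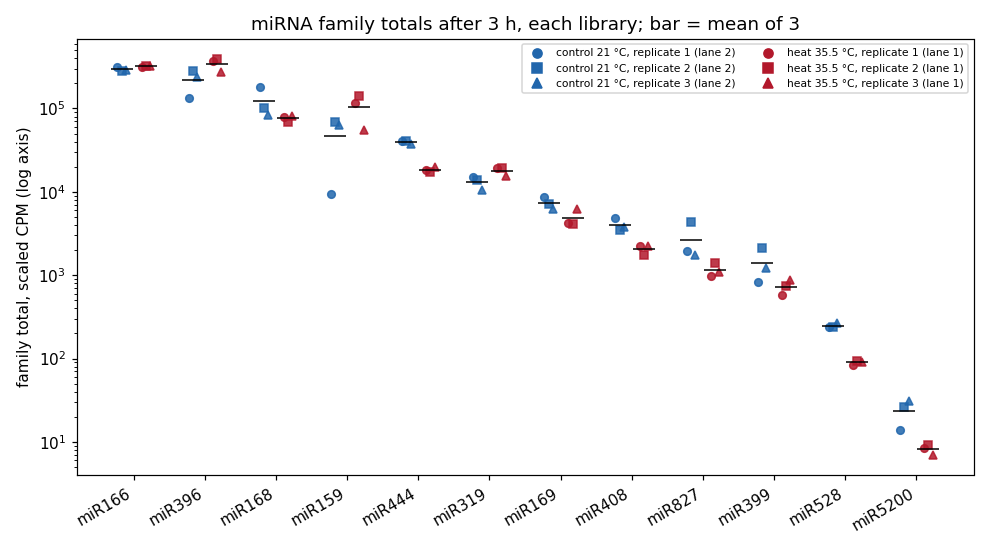
Family totals in scaled CPM (vertical log axis) in each control library (blue, lane 2) and heat library (red, lane 1) of 3 h for 12 families, with the mean of 3 libraries as a bar. miR444 and miR528, the families that passed, show no overlap between 37713 to 40224 and 17305 to 19785 CPM and between 236 to 267 and 84.8 to 94.2 CPM, and control replicate 1 lies far below the other libraries in miR159.

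Among families with transcription factor targets, miR169, which targets NF-YA mRNAs, gave all 6 calls of the 95 tested sequences of the NF-YA and GRAS list, all lower (6.32%, against 3.37% lower over all tested sequences). The list's median was -0.52, against -0.08 over all tested. Within a lane it was -0.22 at 1 h, with 4 lower, and -0.18 at 6 h, with 9 lower. The MIR169c precursor sequence of 21 nt was 141, 256 and 163 CPM in the control libraries and 13.0, 24.4 and 26.6 CPM in the heat libraries. It fell (log2 fold change -3.13 ± 0.39, adjusted p = 0.00256), and so did the form without its last base (-4.004 ± 0.50, adjusted p = 0.00256), each in all 12 alternatives. The other miR169 calls were a MIR169d precursor sequence of 20 nt matched in Brachypodium distachyon (-1.61 ± 0.29), another matched in Aegilops tauschii (-2.08 ± 0.38), a MIR169i precursor sequence (-1.84 ± 0.39) and the mature 3p sequence of MIR169f (-1.67 ± 0.35), and these held in 5 to 8 of 12 alternatives. Over the 6 fits that each leave out 1 library the list had 2 to 6 lower. The most abundant miR169 sequence, of the MIR169d precursor, stood at -0.74 ± 0.29 (adjusted p = 0.195). The miR169 total was 8598, 7155 and 6218 CPM in the control libraries and 4174, 4072 and 6196 CPM in the heat libraries. Heat replicate 3 nearly reached control replicate 3, and the total did not pass (log2 fold change -0.61 ± 0.24, adjusted p = 0.235). miR171, which targets mRNAs of GRAS proteins, stood at -0.65 ± 0.27 (adjusted p = 0.236) and its most abundant sequence at -0.76 ± 0.31 (adjusted p = 0.216).

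In the phosphate and sulfate list 1 of 13 sequences passed (7.69%, against 4.35% over all tested sequences), the MIR399a precursor sequence. It was 33.3, 86.2 and 34.5 CPM in the control libraries and 8.92, 8.13 and 12.8 CPM in the heat libraries, and it fell (log2 fold change -2.37 ± 0.47, adjusted p = 0.0242), in 7 of 12 alternatives. Leaving out 1 library at a time gave 0 to 3 lower sequences in this list. Its partner, the mature strand of miR399, a family that targets the mRNA of the ubiquitin-conjugating enzyme PHO2, stood at -0.90 ± 0.36 (adjusted p = 0.199). The family totals stood at -0.93 ± 0.38 for miR399, -1.20 ± 0.41 for miR827, which targets mRNAs of SPX-domain proteins, and 0.14 ± 0.45 for miR395, which targets mRNAs of sulfate assimilation, with adjusted p = 0.236, 0.235 and 0.877. Control replicate 2 was the highest library for both miR399, at 2109 CPM, and miR827, at 4359.9 CPM. The most abundant miR827 sequence, a mature 5p sequence of 22 nt, was 971, 3177 and 1208 CPM in the control libraries and 519.7, 839 and 549.9 CPM in the heat libraries. Every heat library lay below the control libraries, and the sequence did not pass (log2 fold change -1.49 ± 0.45, adjusted p = 0.115). It was called in 4 of 12 alternatives, among them the one without control replicate 1 (-1.78, adjusted p = 0.0225), and at 6 h within a lane it was lower (-1.63 ± 0.41, adjusted p = 0.0212). The most abundant miR395 sequence was near the floor of 3 counts, at 2.13 to 5.07 CPM, and stood at -0.58 ± 0.57 (adjusted p = 0.610). In the silencing list 1 of 26 passed (3.85%, against 4.35% over all tested sequences). This was a 20-nt form of the 3p strand of miR168, a family whose guide targets ARGONAUTE1 mRNA. It was 1685, 909 and 810.4 CPM in the control libraries and 405, 410.2 and 350.1 CPM in the heat libraries (log2 fold change -1.55 ± 0.33, adjusted p = 0.0287), in 8 of 12 alternatives. The 21-nt 3p form with 1 more base at its start stood at -0.24 ± 0.28. The miR168 total was 182374, 101127 and 83124 CPM in the control libraries and 79789, 68167 and 82289 CPM in the heat libraries (log2 fold change -0.67 ± 0.30, adjusted p = 0.240). Its guide, the most abundant sequence of the family, stood at -0.73 ± 0.30 (adjusted p = 0.216), with each heat library below the control libraries. The highest heat library, at 67183 CPM, lay just below the lowest control library, at 67460 CPM. Control replicate 1 held 153754 CPM, and without it the guide stood at -0.31 (adjusted p = 0.306). Within a lane the guide stood at 0.01 ± 0.27 at 1 h and -0.07 ± 0.27 at 6 h. miR162 and miR403, the other families of that list, which had 0 to 2 lower sequences over the fits without 1 library, had 3 and 2 counts in all 6 libraries.

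The remaining lower sequences came from miR166, miR319 and miR6191. For miR166, which targets mRNAs of HD-ZIP III transcription factors, the mature 5p sequence of MIR166c (-1.95 ± 0.33, adjusted p = 0.0114) and a precursor sequence of MIR166b (-1.73 ± 0.36, adjusted p = 0.0287) fell. For miR319, which targets mRNAs of TCP transcription factors, a pair of precursor forms matched in Glycine max fell (-3.52 ± 0.57 at 21 nt and -2.44 ± 0.56 at 20 nt). The 21-nt form was 25.5, 39.2 and 19.6 CPM in the control libraries and 0.811, 2.39 and 4.26 CPM in the heat libraries, and its call held in all 12 alternatives. The call of the 20-nt form held in 5 of the 11 alternatives that tested it, and those of the miR166 and miR6191 sequences in 6 to 10 of 12. The sequence of MIR6191, a barley precursor, was 79.1, 85.2 and 74.9 CPM in the control libraries and 35.7, 28.2 and 32.5 CPM in the heat libraries (log2 fold change -1.31 ± 0.27, adjusted p = 0.0287). Another form of it that starts and ends 2 bases earlier stood at 0.23 ± 0.27.

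The strands of the duplexes were then set side by side. Sequences of a family were paired where they can form at least 15 base pairs with ends as in a duplex, and the side with the lower sum over the 6 libraries was called the minor strand. This grouping was chosen after the values were seen, so its counts are a description. The heat libraries enter that sum, so a side that fell in heat was more likely to be called minor. In miR444 the minor and major strands were near equal in control, with means of 19171 and 19292 CPM. In heat they stood at 5906 and 11657 CPM. Of 213 tested sequences on a minor strand 15 were lower (7.04%, against 3.37% of all 713) and 2 higher in heat, with a median of -0.24. Of 283 on a major strand 3 were lower (1.06%) and 4 higher, with a median of 0.18. The remaining 217 had no partner in the table, with 6 lower, 1 higher and a median of -0.16. Of these 217, 3.23% were called, against 4.35% of all 713, whose median was -0.08. The same sets had medians of -0.07, 0.04 and -0.05 at 1 h and -0.07, 0.13 and 0.05 at 6 h, where the lanes do not differ. Minor strands had 7 lower and 1 higher call at 1 h and 19 lower and 4 higher at 6 h, in the fit of all 18 libraries. Over all 713 there were 11 lower and 2 higher at 1 h and 28 lower and 28 higher at 6 h. Leaving out 1 library at a time at 3 h gave 5 to 15 lower sequences on minor strands and 1 to 7 on major strands. With at least 17 base pairs in place of 15, 8 of 142 minor-strand sequences were lower at 3 h (5.63%).

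By family, 20 families had at least 100 counts on each strand. The summed minor strand had the lower log2 ratio of heat to control in 13 of the 20, with a median difference of -0.20 on the log2 scale. Of the 20, the minor strand took a smaller share in all 3 heat libraries than in the 3 control libraries for 3 families, miR408, miR399 and miR444. It took a larger one for 2, miR168 and miR528. For comparison, ranges of levels did not overlap in 25.9% of all 713 sequences and 28.9% of 76 family totals. Each family named here holds a called sequence, so these shares are not independent of those calls. The label of a strand as minor depends on the heat libraries here too. For miR399 the minor strand took 4.21, 4.29 and 2.95% in the control libraries and 1.57, 1.14 and 1.52% in the heat libraries. For miR168 it took 10.5, 11.5 and 11.3% in the control libraries and 14.2, 16.4 and 12.7% in the heat libraries. In miR169 the strands held about equal shares in both groups, with 55.1, 51.2 and 59.1% in the control libraries and 54.9, 55.1 and 52.9% in the heat libraries, although 5 of the 6 lower miR169 sequences were on minor strands. Of these 5, the MIR169d form matched in Brachypodium distachyon has the start of a listed mature miR169 sequence and ends 1 base before it. Several hairpins of that family are summed there, and a partner was sought among all of them. A minor strand of miR169 is therefore not shown to be a passenger strand. The 21-nt MIR169c sequence pairs with its partner, matched in Zea mays, over 15 bases, the least allowed. It was itself the more abundant of that pair, at a mean of 104 CPM against 24.4 CPM over the 6 libraries.

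**Figure D3:**
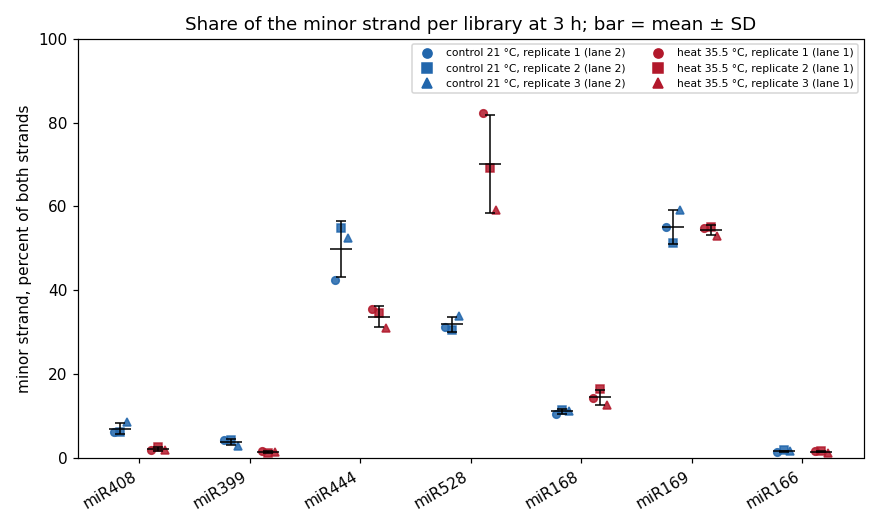
Share of the minor strand (vertical axis, percent of the counts of both strands) in each control library (blue) and heat library (red) of 3 h for 7 families, with mean and SD. The minor strand of miR408 lies at 6.24 to 8.53% in control and 1.82 to 2.63% in heat, that of miR444 at 42.4 to 54.8% and 30.99 to 35.6%, and that of miR528 (its 5p side) at 30.5 to 33.8% and 59.1 to 82.4%.

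Of the 7 sequences that rose, 6 were shorter or shifted forms of a more abundant sequence of the same strand, and 5 of the 7 were 20 nt long. Sequences of 20 nt made up 142 of the 713 tested. Among these 142, 5 were higher and 7 lower, with a median of -0.11 against -0.08 over all tested. The largest rise was that of a 19-nt form of the miR396 guide strand, a family that targets mRNAs of growth-regulating factors. It was 0.520, 0 and 1.70 CPM in the control libraries and 34.5, 27.7 and 21.3 CPM in the heat libraries, with 5 counts in all control libraries and 183 in all heat libraries (log2 fold change 5.08 ± 0.68, adjusted p = 0.00313). It is the only rise whose call held in all 12 alternatives, and with so few control counts the size of the fold is imprecise. It starts 4 bases after the 21-nt guide and ends 2 bases after it, and it amounted to at most 0.0140% of the counts of the pair. The guide itself was 85733, 192752 and 161360 CPM in the control libraries and 246601, 287256 and 184631 CPM in the heat libraries (log2 fold change 0.71 ± 0.30, adjusted p = 0.236). Control replicate 1 was the lowest library for the guide. For miR319, the 20-nt form of a MIR319b sequence was 3.64, 13.4 and 3.83 CPM in the control libraries and 47.1, 59.3 and 30.4 CPM in the heat libraries (log2 fold change 2.70 ± 0.54, adjusted p = 0.0261), and the 21-nt form was 204, 180.1 and 114 CPM in the control libraries and 426, 428 and 346 CPM in the heat libraries (log2 fold change 1.27 ± 0.30, adjusted p = 0.0446). Their 22-nt variant was 13008, 12062 and 8929 CPM in the control libraries and 16807, 16933 and 13497 CPM in the heat libraries (log2 fold change 0.47 ± 0.23, adjusted p = 0.308). The log2 fold changes at 20, 21 and 22 nt were 2.70, 1.27 and 0.47, and the differences between them were not tested.

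In miR166 a pair of 20-nt forms of 5p strands, each without the last base of a mature sequence, rose. The MIR166a form was 27.1, 12.9 and 15.7 CPM in the control libraries and 87.2, 86.5 and 36.2 CPM in the heat libraries (log2 fold change 1.92 ± 0.44, adjusted p = 0.0422), while its 21-nt form stood at -0.19 ± 0.33. The MIR166a form took 6.34, 6.11 and 5.52% in control and 22.1, 25 and 15.7% in heat of the pair of forms. The MIR166d form was 102, 86.2 and 96.6 CPM in the control libraries and 269, 197 and 205 CPM in the heat libraries (log2 fold change 1.24 ± 0.27, adjusted p = 0.0339), while its 21-nt form stood at -0.14 ± 0.25. It took 4.82, 3.21 and 4.56% in control and 11.3, 8.00 and 11.2% in heat of its pair. Neither pair of shares overlapped between the groups. A 20-nt form of MIR160f, of a family that targets mRNAs of auxin response factors, was 6.25, 4.15 and 5.11 CPM in the control libraries and 24.7, 15.8 and 26.1 CPM in the heat libraries (log2 fold change 2.10 ± 0.41, adjusted p = 0.0233), and the 21-nt form stood at 0.65 ± 0.51. Its share of the pair overlapped between groups, at 1.43, 2.76 and 4.08% in control and 5.95, 3.11 and 11.1% in heat. The MIR156e sequence, of a family that targets mRNAs of SPL transcription factors, was 5.20, 6.91 and 5.96 CPM in the control libraries and 36.9, 13.4 and 40.0 CPM in the heat libraries (log2 fold change 2.31 ± 0.48, adjusted p = 0.0287). It is the most abundant of its end variants, and the next form was not tested. The 6 calls other than that of miR396 held in 7 to 9 of 12 alternatives and were lost in fits without single libraries.

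**Figure D4:**
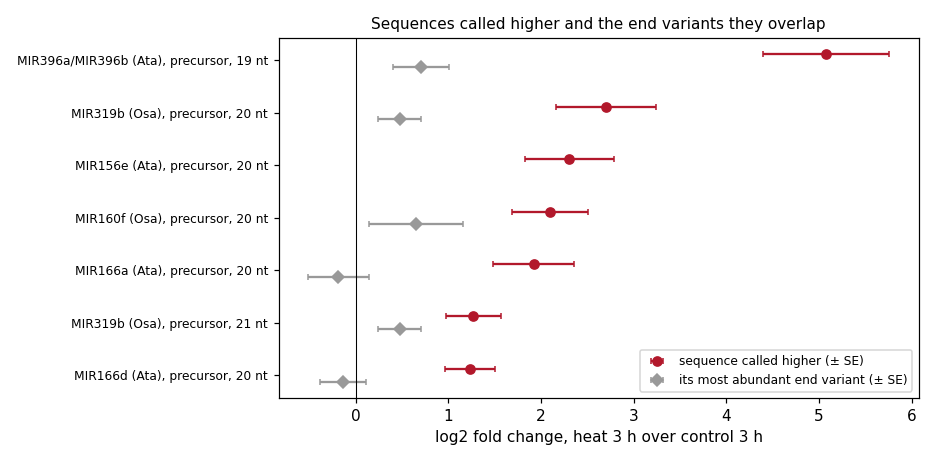
Log2 fold change of heat 3 h over control 3 h (horizontal axis, with SE) for the 7 sequences called higher (red circles) and for the most abundant end variant of each (grey diamonds). Ata marks a precursor of Aegilops tauschii and Osa one of Oryza sativa, and the end variant of MIR156e was not tested. The called forms lie between 1.24 and 5.08 and their end variants between -0.19 and 0.71.

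Heat and control libraries of 1 h shared lane 1 and those of 6 h shared lane 2, and neither time shares a library with 3 h, so the 31 sequences were read in those libraries (a fit of all 18 libraries, which share 1 estimate of the spread). All 31 were tested there. At 1 h 30 of the 31 had the sign of 3 h (451 of all 713, 63.3%), and 8 passed in that direction, all lower. At 6 h 30 of the 31 had the sign of 3 h (452 of all 713, 63.4%), and 21 passed in that direction, 15 lower and 6 higher. In that fit 1.56% of 961 sequences were called at 1 h (1.25% lower) and 6.97% at 6 h (3.54% lower, 3.43% higher). None of the 31 passed in the opposite direction. The MIR444c sequence of 21 nt stood at -1.82 ± 0.18 at 1 h and -1.71 ± 0.18 at 6 h, and the MIR169c sequence of 21 nt at -2.48 ± 0.37 at 1 h and -2.92 ± 0.37 at 6 h. The miR408 mature 5p sequence stood at -0.90 ± 0.41 at 1 h and -2.43 ± 0.44 at 6 h and the miR528 mature 3p sequence at -1.52 ± 0.46 at 1 h and -2.59 ± 0.51 at 6 h, and both passed at 6 h alone (adjusted p = 0.00217 and 0.00358). The 19-nt miR396 form stood at 1.23 ± 0.50 at 1 h and 3.06 ± 0.57 at 6 h, and it passed at 6 h. The sign differed at both times for the 21-nt miR408 3p form, at 0.14 ± 0.39 at 1 h and 0.15 ± 0.41 at 6 h.

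**Figure D5:**
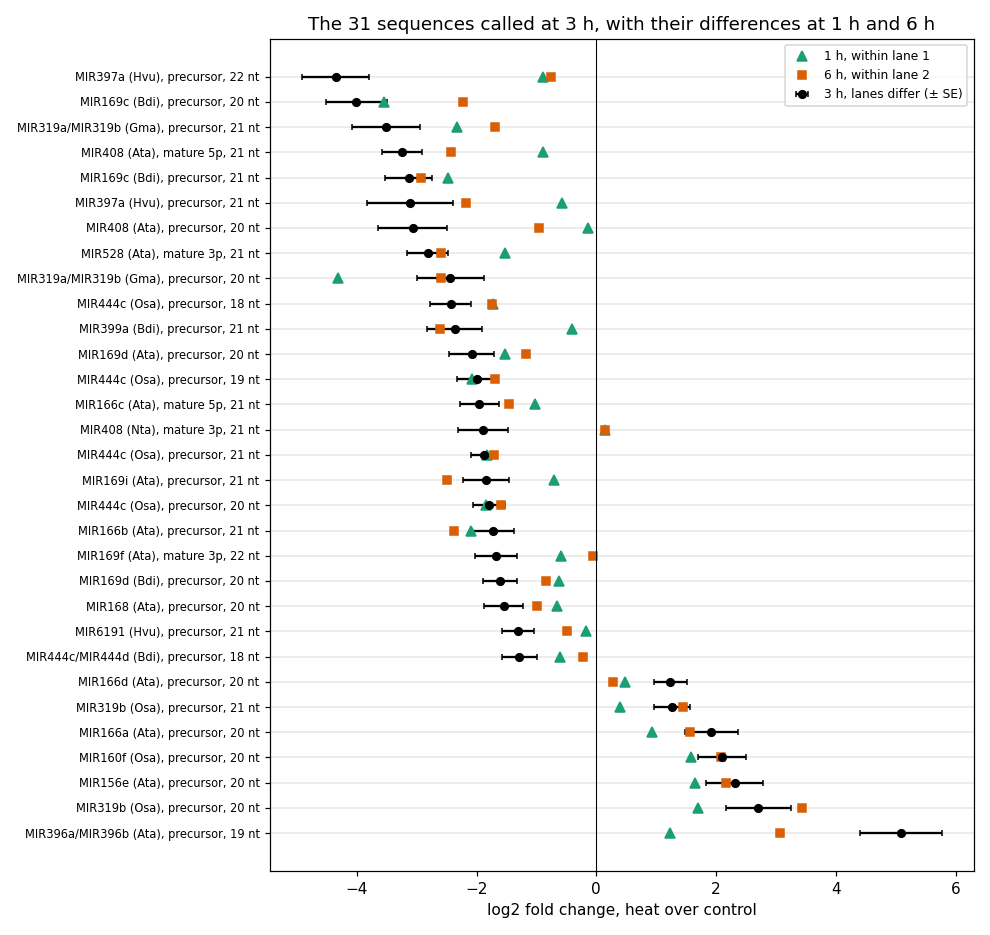
Log2 fold change of heat over control (horizontal axis) for the 31 sequences called at 3 h: at 3 h with SE (black), where lane and temperature go together, at 1 h within lane 1 (green triangles) and at 6 h within lane 2 (orange squares). Abbreviations name the species of the precursor (Ata, Aegilops tauschii; Bdi, Brachypodium distachyon; Gma, Glycine max; Hvu, Hordeum vulgare; Nta, Nicotiana tabacum; Osa, Oryza sativa). In 30 of 31 rows the points of 1 h and 6 h lie on the same side of 0 as that of 3 h.

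The difference at 3 h was then compared with the mean of the within-lane differences at 1 h and 6 h. With edgeR no sequence of 961 passed (0.0%), and 80 had an unadjusted p under 0.05 (8.32%). No family of 75 passed (6 with an unadjusted p under 0.05, 8.0%) and no family arm of 132 (11, 8.33%), and DESeq2 called 0 of each as well. Of the 31 sequences 11 had an unadjusted p under 0.05 in this contrast. The 31 were chosen by their difference at 3 h, which enters the contrast, so their count cannot be read against the 8.32%. The MIR397a sequence of 22 nt differed by -3.48 ± 0.83 (adjusted p = 0.262), having stood at -0.90 ± 0.61 at 1 h and -0.76 ± 0.61 at 6 h. The 21-nt miR408 3p form differed by -1.997 ± 0.49 (adjusted p = 0.262) and the 19-nt miR396 form by 2.99 ± 0.79 (adjusted p = 0.360). The miR444 total stood at -1.01 ± 0.14 at 1 h and -0.89 ± 0.14 at 6 h, and its difference from that mean was -0.10 ± 0.17. The miR528 total stood at -0.74 ± 0.41 at 1 h and -0.06 ± 0.41 at 6 h and the miR408 total at 0.04 ± 0.34 at 1 h and 0.03 ± 0.34 at 6 h. Their differences from the mean were -1.04 ± 0.50 (adjusted p = 0.499) and -0.95 ± 0.42 (adjusted p = 0.499). For the lower totals of miR528 and miR408 at 3 h, lane and temperature cannot be told apart. Without heat replicate 3 of 3 h, 1 family (miR9777) and 2 arms (miR9777 precursor sequences and miR6300 mature 3p) passed in this contrast.

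Of 76 tested families 2 passed at 3 h, miR444 and miR528 (2.63%, both lower), and 15 had an unadjusted p under 0.05 (19.7%). Heat and control did not overlap in 22 families (28.9%), 16 with heat below (21.1%) and 6 with heat above (7.89%). miR5200, whose targets in Brachypodium distachyon are mRNAs of FT-like flowering regulators, was 14.1, 26.3 and 31.1 CPM in the control libraries and 8.52, 9.08 and 6.93 CPM in the heat libraries and did not pass (log2 fold change -1.54 ± 0.35, adjusted p = 0.0882). It stood at -1.04 ± 0.31 at 1 h and -1.31 ± 0.33 at 6 h. Of 130 family arms 3 passed (2.31%), all lower: miR408 mature 5p, miR528 mature 3p and the miR444 precursor sequences. An unadjusted p under 0.05 was reached by 27 arms (20.8%). The arm counts were 14 with no filter, 8 with DESeq2, 6 without control replicate 1 and 5 with all 18 libraries fitted together. DESeq2 called 5 families: miR444, miR528, miR408, miR5200 and miR1511. miR5200 also passed without control replicate 1 and in the fit of 18 libraries, where miR396 passed as higher (0.73, adjusted p = 0.0440).

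The leaf development list had 5 of 182 sequences higher and 4 lower, with a median of 0.40. Of all tested sequences 0.982% were higher and 3.37% lower, with a median of -0.08. Heat libraries lay above control without overlap in 43 sequences of the list (76 of all 713, 10.7%) and below in 12 (109 of 713, 15.3%). Within a lane the list's median was 0.09 at 1 h and 0.28 at 6 h. Its family totals stood at 0.12 ± 0.07 for miR166, 0.66 ± 0.29 for miR396, 0.46 ± 0.19 for miR319, -0.19 ± 0.52 for miR165 and 1.13 ± 0.74 for miR159, which targets mRNAs of GAMYB transcription factors, and none passed. Of 58 tested miR396 sequences 51 stood above 0 (87.9%, against 46% of all 713) and 1 passed. The major strand held 46 of the 58. Sequences of a strand can overlap each other, so the 58 are not independent. The miR396 guide stood at -0.19 ± 0.23 at 1 h and 0.44 ± 0.23 at 6 h within a lane. At 3 h without control replicate 1 it stood at 0.44. Without control replicate 1, the lowest library for miR159 and miR396, the list had 9 higher and 3 lower and a median of 0.35, and over the fits without 1 library it had 1 to 9 higher and 1 to 3 lower. The most abundant sequence of the table, of miR166, is annotated as precursor and starts and ends 1 base before a listed mature miR166 sequence. It was 300663, 269026 and 274755 CPM in the control libraries and 301436, 310560 and 306612 CPM in the heat libraries (log2 fold change 0.12 ± 0.16, adjusted p = 0.697). The auxin list had 1 of 73 higher (1.37%, against 0.982% over all tested), the MIR160f form, and a median of -0.18 (0.06 without control replicate 1). Its totals stood at 0.01 ± 0.32 for miR160, -0.19 ± 0.21 for miR164, which targets NAC mRNAs, 0.11 ± 0.12 for miR167, -0.26 ± 0.25 for miR390 and -0.45 ± 0.25 for miR393, which targets mRNAs of TIR1-type auxin receptors. The phase change list had 1 of 48 higher (2.08%, against 0.982% over all tested), the MIR156e sequence. Its totals stood at 0.02 ± 0.14 for miR156 and -0.08 ± 0.14 for miR172, which targets AP2-type mRNAs. None of these totals passed. The most abundant sequence of a family stood at -0.05 ± 0.26 for miR160, -0.63 ± 0.38 for miR164, 0.26 ± 0.20 for miR167, -0.35 ± 0.29 for miR390, -0.42 ± 0.26 for miR393, 0.02 ± 0.20 for miR156 and 0.01 ± 0.37 for miR172. In the leaf development list it stood at -0.19 ± 0.46 for miR165 and 1.18 ± 0.65 for miR159, and none of these sequences passed either. The most abundant sequence need not be the guide. That of miR164 is a mature 3p sequence on the minor strand, and its partner stood at -0.03. That of miR172 is a mature 5p sequence, and its partner stood at 0.33. That of miR160 is a precursor sequence that overlaps no listed mature miR160 sequence by at least 16 nt.

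Among 139 sequences of grass and cereal families 6 were lower and 0 higher, 5 of them of miR444 and 1 of miR528, with a median of -0.01. The called share, 4.32%, is close to the 4.35% over all tested sequences. Its other families with a tested total did not pass, among them miR5048 (0.80 ± 0.49), miR5051 (0.36 ± 0.22), miR5168 (0.10 ± 0.09), miR5083 (0.51 ± 0.15) and miR1432 (-0.68 ± 0.26). Of the families that earlier work named for barley under heat, miR160, miR166 and miR167 stood at the values above, and the heat libraries held 5 counts of miR5175, where control held 0. Leaving out 1 library at a time gave 3 to 7 lower sequences in the cereal list. The list of earlier work had 3 of 113 higher and 2 lower (4.42%, against 4.35% over all tested sequences), with a median of 0.11. Without 1 library it had 0 to 4 higher and 0 to 2 lower, with medians of 0.02 to 0.26.

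The make-up of the libraries was compared over shares of all counts with exact two-sided permutation tests, whose smallest p is 0.1 with 3 libraries against 3. None of 12 shares passed (lowest adjusted p = 0.300). Sequences that start with C made up 6.88 ± 0.868% in control and 4.96 ± 0.111% in heat (SD, n = 3, exact p = 0.1), and each heat library lay below each control library. The 21-nt MIR444c sequence starts with C and had means of 17275 CPM in control and 4726 CPM in heat. This share is therefore not independent of the call of that sequence. Those that start with T made up 89.3 ± 0.581% in control and 90.9 ± 0.590% in heat (exact p = 0.1). Mature 3p sequences made up 11.6 ± 0.833% in control and 9.15 ± 1.36% in heat (exact p = 0.1). Sequences of 21 nt made up 83.0 ± 1.09% in control and 81.5 ± 0.958% in heat (exact p = 0.2), and those of 20 nt 5.63 ± 0.642% in control and 6.01 ± 0.279% in heat (exact p = 0.6).

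In the authors' deposited table an FDR under 0.05 was given for 34 of 4671 sequences, 5 higher and 29 lower in heat. Of the 31 sequences above 26 were among these 34, with the same sign in the authors' deposited table.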

How the data were processed

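Small RNA of whole barley shoots was sequenced, and the authors deposited 1 table per time with whole-number read counts and RPM (reads scaled to the library total) for distinct sequences after trimming, per the file headers. Annotation to miRNA precursors of 26 plant species allows 0 mismatches, per the file headers. The counting software and its aligner, and any genome build, were not given in the sources used here. No coordinates are printed. The deposited p-values, FDR values and signed fold score come from an EDGE test with tagwise dispersions of control against heat, per the file headers. Library totals implied by counts and RPM were 27671565 to 35184792 reads at 3 h.

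Counts were filtered with filterByExpr (minimum count 10, total 15), scaled with TMM factors and tested with edgeR 4.0.16 (quasi-likelihood F test, Benjamini-Hochberg adjustment) in R 4.3.3. Families sum sequences by family number, and arms follow the authors' mature or precursor annotation. A sequence shared by near-identical loci or species counts once, under the annotation it was given. Differences at 1 h and 6 h come from 1 fit of the 2720 sequences listed in the tables of all 3 times. Strand pairs (RNAduplex 2.7.2) were chosen after the values were seen. Shares were tested with exact permutation tests (scipy 1.17.1). Tested on simulated counts for 3 h (679 sequences), the fit recovered 24.2% of 99 changed 2-fold and 76.1% of 92 changed 4-fold.

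Named are the called families and arms, the 10 largest falls and rises with a mean of at least 10 CPM in the higher group and no overlap, totals and most abundant sequences of listed families, and end variants sharing at least 16 nt. One most abundant sequence is not reported here. The other called sequences were named after their values were seen. The members and lists were chosen with earlier results of these data known. Replicates correlated at r = 0.911 to 0.938 across sequences, which are not independent. A count of 3 corresponds to 1.09 to 1.79 CPM before scaling, and such limits cover counting error only. Alternatives were DESeq2 1.42.0, RLE factors, implied totals, no filter, a minimum of 10 CPM, all 18 libraries in 1 fit, and each replicate left out.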

Additional observations from a re-analysis of the deposited data

How the results depend on the processing

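No paired analysis was possible because replicate numbers follow accession order and the labels pair no samples. Against 31 called sequences, RLE factors, implied totals and a minimum of 10 CPM gave counts within 1.5 times (28 to 31), while DESeq2 gave 58, no filter 55 and the fit of all 18 libraries 66. Leaving out 1 replicate gave 9 to 49. Families called (2) came to 5 with DESeq2, and 2 to 3 without 1 replicate. Arms called (3) came to 8 with DESeq2, 14 with no filter, 5 with 18 libraries, and 3 to 6 without 1 replicate. The contrast of 3 h with the mean of 1 h and 6 h, at 0 calls, gave 0 to 1 families and 0 to 2 arms without 1 replicate, and 0 under the other alternatives run. Each of the 31 called sequences had the same sign in each alternative in which it was tested. With 14 base pairs for a strand pair 17 of 227 minor-strand sequences were lower (7.49%), and with 17 base pairs 8 of 142 (5.63%). These settings were chosen after seeing the data.

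Values near 0 changed sign. The miR5049 total was above 0 with RLE factors (0.04996), implied totals (0.0643), DESeq2 (0.0501) and 18 libraries (0.0441), and the miR160 total stood at -0.000478 with no filter. The miR160 sequence CTGGTTGGCATTGAGGGAGTC stood at 0.000129 with RLE factors, 0.0289 with implied totals and 0.000319 with DESeq2. Without 1 replicate, totals ranged from -0.0303 to 0.12 for miR156, -0.16 to 0.42 for miR160, -0.62 to 0.47 for miR165, -0.13 to 0.0530 for miR172, -0.44 to 0.0061 for miR390, -0.21 to 0.55 for miR395, -0.10 to 0.0870 for miR5049 and -0.69 to 0.0311 for miR5072. Sequences ranged from -0.16 to 0.0869 for CTGGTTGGCATTGAGGGAGTC, -0.35 to 0.32 for GCAGCACCACCAAGATTCACA (miR172), -0.62 to 0.46 for TCGGACCAGGCTTCATCCCCC (miR165) and -0.0339 to 0.11 for TTGACAGAAGAGAGTGAGCAC (miR156). The heat minus control share of 24-nt sequences ranged from -0.0359 to 0.0307 percentage points. Without the 10 most abundant sequences, the difference was -2.39 points for mature 5p sequences and 6.20 for precursor sequences, against 3.98 and -1.55. The cause was not tested.

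Lane goes with temperature at 3 h, so no fit separates them there. Sequences near the floor of 3 counts have imprecise folds.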
